A study of Mus musculus with 6 samples.

Results

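Transcripts of the MHC class II antigen presentation pathway were examined in mouse bone marrow with and without the adaptor gene Gab2. The 10 genes were chosen by symbol: the class II transactivator Ciita, the classical chains H2-Aa, H2-Ab1 and H2-Eb1, the invariant chain Cd74, the peptide exchange factor genes H2-DMa, H2-DMb1 and H2-DMb2, and the exchange inhibitor genes H2-Oa and H2-Ob. All 10 were found, each on a single row, among 23359 gene symbols of the deposited expression table. The series held 6 polyadenylated RNA libraries, 3 from Gab2+/+ bone marrow (WT A, B and C) and 3 from Gab2-/- bone marrow (NULL A, B and C), in a study of GAB2 signalling in transformation by BCR-ABL1. Strain, H2 haplotype, age, the construction of the null allele and any treatment were not given in the sources used here. Nothing in the labels ties a library to an animal or a culture. The p-values therefore measure the spread between libraries, which may be technical.

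Class II molecules present peptides from endosomes to CD4 T cells. An alpha and a beta chain (I-A from H2-Aa and H2-Ab1, and the beta chain of I-E from H2-Eb1) assemble on the invariant chain, which guides them to endosomes and leaves a fragment called CLIP in the groove. H2-DM, made from H2-DMa and either beta gene, removes CLIP and edits peptides, and H2-DO, made from H2-Oa and H2-Ob, binds H2-DM and restrains it. CIITA is the inducible co-activator of most of these genes, and it docks on RFX, CREB and NF-Y proteins bound to a conserved promoter module with an X box and a Y box. In the B lineage of mice, surface class II appears late in marrow maturation, and H2-DO is largely restricted to B cells, thymic epithelium and some dendritic cells.

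The promoter module is shown because its letters were found upstream of the RefSeq start of 6 of the 10 genes. RefSeq promoter windows on GRCm38.p6 were at hand for 7 of the 10 genes, and the 250 bases before each annotated start were searched on both strands for the Y-box letters GATTGG and for AAC followed by GATTGG after a gap of 23 to 31 bases. This pattern was set after the windows had been read, and its parts overlap by construction, since the paired pattern contains the Y-box letters. In the 5 stretches below, written 5′ to 3′ on the gene's strand, the capitals mark the AAC letters of the X-box region and the Y-box letters.
H2-Oa: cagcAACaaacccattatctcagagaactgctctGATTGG
H2-Ob: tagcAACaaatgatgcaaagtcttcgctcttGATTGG
H2-DMb2: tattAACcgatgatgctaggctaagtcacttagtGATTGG
H2-Aa: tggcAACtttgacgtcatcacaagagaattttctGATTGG
H2-Eb1: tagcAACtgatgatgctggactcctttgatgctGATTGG
They lie at chr17:34092301-34092340 (H2-Oa, plus strand), chr17:34238816-34238852 (H2-Ob, plus), chr17:34145124-34145163 (H2-DMb2, plus), chr17:34287867-34287906 (H2-Aa, minus) and chr17:34305774-34305812 (H2-Eb1, plus). The Y-box letters ended 38, 52, 85, 43 and 54 bases before the RefSeq start in that order. The corresponding stretch of H2-DMb1 matched that of H2-DMb2 at 35 of 40 bases and ended 56 bases before its RefSeq start. GENCODE starts differ. By the GENCODE positions the H2-DMb2 stretch lies inside the gene, which starts at 34143307. The H2-DMb1 stretch lies after the GENCODE start at 34153072 and overlaps an exon of that gene. The H2-Oa stretch ends on the GENCODE start base, 34092340. The paired pattern was present in 6 of the 7 genes and in 1.59% of 32851 windows of all genes, and GATTGG alone in 7 of 7 genes and in 14.6% of windows. H2-DMa had 2 windows. Neither held the paired pattern, and 1 held GATTGG. A match describes letters only. The paired letters stood before the RefSeq start of genes near 0 in every library (H2-Aa, H2-Eb1) and of genes that rose (H2-Oa, H2-Ob). They also stood before that of H2-DMb2, which was not called, and of H2-DMb1, which was not tested. H2-DMa rose without them.

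Gab2 itself, the check of the labels, read 3.33, 3.10 and 2.43 FPKM (fragments scaled by transcript length and by mapped fragments) in WT A, B and C and 0.123, 0.145 and 0.203 FPKM in NULL A, B and C. The NULL mean was 5.31% of the WT mean (exact two-sided permutation p = 0.1, the smallest that 3 libraries against 3 allow). The libraries held roughly 17.8 to 67.6 M fragments (M, mega) by the step between low values, so that 1 fragment on a kilobase of transcript was worth about 0.0148 to 0.0562 FPKM. The tissue label was checked against markers. B-lineage markers (7 genes, among them Cd79a and Vpreb1) summed to between 1850 and 2030 FPKM in WT and between 2920 and 3080 FPKM in NULL, whereas the neutrophil genes Mpo, Elane, S100a8 and S100a9, abundant in whole marrow, summed to at most 0.0179 FPKM in any library. T-cell markers summed to at most 0.148 FPKM and erythroid markers to at most 0.237 FPKM. The granulocytic and erythroid transcripts of the labelled tissue were thus near 0, and B-lineage transcripts were abundant. In bulk RNA, fewer cells of a type and less RNA per cell cannot be told apart.

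The H2-DO genes and H2-DMa moved in the opposite direction to H2-Ab1 and the invariant chain gene. H2-Oa, H2-Ob and H2-DMa rose in NULL, by 3.19, 2.84 and 2.43 times the WT mean, while H2-Ab1 and Cd74 fell to 0.278 and 0.508 of it. H2-DMb2 was not called, and Ciita, H2-Aa, H2-Eb1 and H2-DMb1 had means below 1 FPKM and stayed outside the test. Of the 6 tested genes, each with a mean above 1 FPKM in both groups, 3 were called higher and 2 lower by limma on log2(FPKM + 1) at an adjusted p below 0.05. Over all 9916 tested genes 65.3% were called, 23.3% higher and 42.0% lower, so a called gene was the common case. The groups stood apart without overlap in all 6 tested genes, 3 higher and 3 lower in NULL, against 71.0% of all tested genes (26.0% higher and 45.1% lower). The sum over the 10 genes was 34.9, 38.9 and 63.7 FPKM in the WT libraries A, B and C and lay between 65.0 and 72.8 FPKM in NULL.

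**Figure D1:**
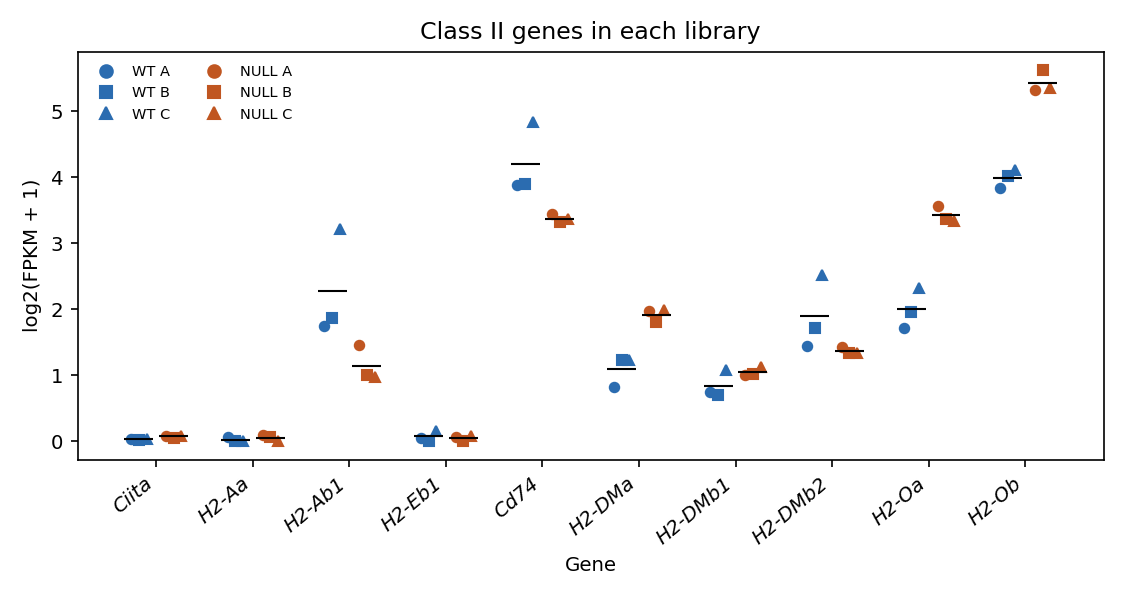
Level of each of the 10 genes (x axis) as log2(FPKM + 1) (y axis) in the 3 WT libraries (blue) and 3 NULL libraries (orange), with a shape per replicate letter and a line at the group mean. H2-Oa, H2-Ob and H2-DMa stand higher in every NULL library, Cd74 and H2-Ab1 lower, and WT C is the highest library for H2-Ab1, Cd74 and H2-DMb2.

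The order of the levels changed between the groups. In WT the leading transcript was Cd74 at 18.5 ± 7.98 FPKM (SD, n = 3), followed by H2-Ob at 14.9 ± 1.59 FPKM, and these neighbours overlapped. Next came H2-Ab1, H2-Oa and H2-DMb2 at 4.44, 3.07 and 2.92 FPKM, whose ranges also overlapped, and then H2-DMa and H2-DMb1 at 1.15 and 0.801 FPKM. In NULL H2-Ob led at 42.4 ± 5.13 FPKM (SD, n = 3), with no overlap with the next gene. H2-Oa and Cd74 followed at 9.78 and 9.38 FPKM with overlapping ranges, then H2-DMa at 2.79 FPKM, and H2-DMb2, H2-Ab1 and H2-DMb1 at 1.58, 1.24 and 1.07 FPKM. Ciita, H2-Aa and H2-Eb1 were at the bottom in both groups, each with a group mean of no more than 0.0511 FPKM.

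Ciita, the master co-activator of class II genes, was barely detectable. It lies on chromosome 16 from 10480059 to 10528418 (GRCm38, plus strand). It read 0.0258, 0.0112 and 0.0177 FPKM in the WT libraries A, B and C and 0.0559, 0.0344 and 0.0582 FPKM in the NULL libraries A, B and C. All 3 NULL libraries were above all 3 WT libraries, but the highest value corresponds to roughly 22.2 fragments (NULL A) and the lowest to about 1.2 (WT B). In a limma fit without the filter on low values the log2 change was 0.044 (SE 0.012, adjusted p = 0.0332). The gene Dexi overlaps Ciita on the opposite strand for 25888 bases and read 1.60, 1.95 and 2.02 FPKM in WT and 3.03, 2.66 and 2.53 FPKM in NULL. Whether the authors' counting used strand was not given in the sources used here, and the part of Dexi reads in the Ciita values was not tested.

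Among transcripts of the classical chains, only that of the I-A beta chain was present at more than trace level. H2-Ab1 (chromosome 17, 34257689 to 34269419, plus strand) read 2.35, 2.65 and 8.34 FPKM in the WT libraries A, B and C and 1.74, 1.01 and 0.958 FPKM in the NULL libraries A, B and C. Every NULL library was below every WT library, and WT C stood far above WT A and B. The log2 change was -1.13 (SE 0.37, limma adjusted p = 0.0277). Without WT C it was -0.66 (limma adjusted p = 0.00775), and without NULL B or NULL C the call was lost (limma adjusted p = 0.0832 and 0.0837).

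Its partner H2-Aa, the I-A alpha chain (chromosome 17, 34282744 to 34287823, minus strand), was listed at 0.0405 FPKM in WT A, at 0 in WT B and C, at 0.0640 and 0.0478 FPKM in NULL A and B and at 0 in NULL C. H2-Eb1, the I-E beta chain (chromosome 17, 34305867 to 34316674, plus strand), read 0.0364, 0 and 0.117 FPKM in WT and 0.0384, 0 and 0.0499 FPKM in NULL. These values stand for roughly 3.0 to 13.3 fragments where they are above 0, taking the longest annotated transcript of each gene. For H2-Aa this has 3223 bases, and its longest coding transcript, with 1128 bases, would give fewer fragments. The groups overlapped for both genes. The I-A alpha and beta transcripts were therefore far from equal, at 0.0135 and 4.44 FPKM in WT and 0.0373 and 1.24 FPKM in NULL. Both are polymorphic between H2 haplotypes, and any effect of this on the values was not tested.

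Cd74, whose product is the invariant chain, lies on chromosome 18 and is the only member other than Ciita outside the class II region. It read 13.8, 13.9 and 27.7 FPKM in the WT libraries A, B and C and 9.87, 9.0 and 9.28 FPKM in the NULL libraries A, B and C. WT A and B were close together, WT C was 2.0 times their mean, and no NULL library reached the lowest WT library. The log2 change was -0.83 (SE 0.238, limma adjusted p = 0.016). Without WT C it was -0.52 (limma adjusted p = 0.000597). The call was lost after rescaling to a common total and without NULL B (limma adjusted p = 0.0683 and 0.0516).

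Among the H2-DM genes the alpha chain gene rose, and neither beta chain gene was called. H2-DMa (chromosome 17, 34119541 to 34139101, plus strand) read 0.757, 1.33 and 1.36 FPKM in the WT libraries A, B and C and 2.92, 2.49 and 2.95 FPKM in the NULL libraries A, B and C. The groups were well apart, with a log2 change of 0.83 (SE 0.128, limma adjusted p = 0.000816). H2-DMa overlaps Brd2 on the opposite strand for 3094 bases, and Brd2 read 36.6 to 37.6 FPKM in WT and 42.5 to 43.2 FPKM in NULL. The part of Brd2 reads in the H2-DMa values was not tested.

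H2-DMb2 (chromosome 17, 34143307 to 34151555, plus strand) read 1.73, 2.30 and 4.74 FPKM in the WT libraries A, B and C and 1.68, 1.51 and 1.53 FPKM in the NULL libraries A, B and C. The NULL values were all lower, WT A by little, and the log2 change of -0.53 was not called (SE 0.244, limma adjusted p = 0.0893). It was called after quantile normalization and without WT A (limma adjusted p = 0.0337 and 0.0207), and was -0.22 without WT C. H2-DMb1 (chromosome 17, 34153072 to 34160230, plus strand) read 0.678, 0.619 and 1.10 FPKM in WT and 1.01, 1.02 and 1.17 FPKM in NULL, and the groups overlapped through WT C. Without the filter its log2 change was 0.21 (limma adjusted p = 0.189). The longest coding transcripts of these neighbouring genes were 95.4% identical over 848 aligned bases, so the split of reads between them is uncertain.

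Both H2-DO genes rose, and they were the members furthest from the spread between libraries. H2-Oa (chromosome 17, 34092340 to 34095234, plus strand), the alpha chain, read 2.30, 2.89 and 4.01 FPKM in the WT libraries A, B and C and 10.8, 9.38 and 9.16 FPKM in the NULL libraries A, B and C. Every NULL library was above every WT library by a wide margin, and the log2 change was 1.42 (SE 0.149, limma adjusted p = 0.000121). H2-Ob (chromosome 17, 34238903 to 34254414, plus strand), the beta chain, read 13.2, 15.2 and 16.4 FPKM in WT and 39.0, 48.3 and 39.9 FPKM in NULL. Its log2 change was 1.44 (SE 0.107, limma adjusted p = 3.57e-05). By size of increase on the log2(FPKM + 1) scale H2-Ob and H2-Oa ranked 172 and 185 among the 9916 tested genes. H2-DMa ranked 576 on this scale, which understates changes of low genes. H2-Oa is overlapped along its whole length by the antisense gene BC051537, which read at most 0.096 FPKM in any library.

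The direction of the 6 tested genes did not depend on how the libraries were scaled. Over all tested genes the median log2 change was -0.13 as deposited, 0.010 with median-of-ratios rescaling, -0.030 with quantile normalization and 0.12 with a common total, so a change is read against these shifts. H2-Oa and H2-Ob changed by between 1.42 and 1.73 over these 4 scalings and H2-DMa by between 0.72 and 1.02. H2-Ab1 lay between -1.23 and -0.94 and Cd74 between -0.83 and -0.57. The 3 higher calls held under all 4 scalings, as did that of H2-Ab1, while that of Cd74 did not hold under the common total.

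**Figure D2:**
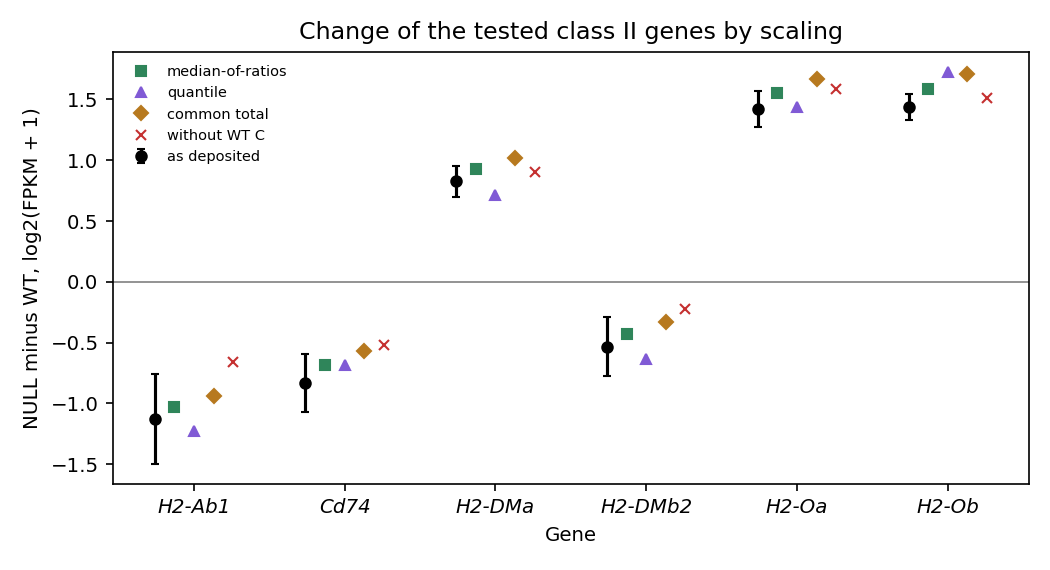
Change from WT to NULL on the log2(FPKM + 1) scale (y axis) for the 6 tested genes (x axis), as deposited (black, with bars of 1 standard error), under 3 rescalings and without library WT C. H2-DMa, H2-Oa and H2-Ob stay above 0 and H2-Ab1, Cd74 and H2-DMb2 below 0 in all 5 settings drawn, and leaving out WT C brings these last genes nearer to 0.

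Ratios between members within a library do not move when all its values are scaled by a common factor. Quantile normalization is not such a scaling and can move them. Of the 6 chosen ratios 4 could be formed, those with H2-Aa or H2-Eb1 alone having libraries at 0. H2-Ob relative to the summed H2-DM beta genes was 5.50, 5.22 and 2.80 in WT A, B and C and 14.5, 19.1 and 14.7 in NULL A, B and C. The transcript of the inhibitor's beta chain was thus in 3.70-fold larger excess in NULL (ratio of geometric means), with no overlap. Protein was not measured. Between the alpha chains the shift was smaller: H2-Oa to H2-DMa was 3.04, 2.17 and 2.96 in WT and 3.69, 3.76 and 3.10 in NULL, 1.30-fold higher. WT A and NULL C nearly met in that ratio.

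H2-DMb2 relative to H2-DMb1 was 2.56, 3.71 and 4.29 in WT and 1.67, 1.48 and 1.31 in NULL, 0.431 of the WT ratio and without overlap, under the same uncertainty of read assignment. Cd74 relative to the summed classical chains was 5.69, 5.26 and 3.27 in WT and 5.34, 8.55 and 9.21 in NULL, and the groups overlapped. Exact two-sided permutation tests of the log2 ratios gave p = 0.1 for the 3 ratios without overlap, the smallest that 3 against 3 allow, and p = 0.2 for Cd74 (Benjamini-Hochberg adjusted over the 4 ratios 0.133 and 0.2). The ratios therefore cannot pass a threshold of 0.05 in this design.

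**Figure D3:**
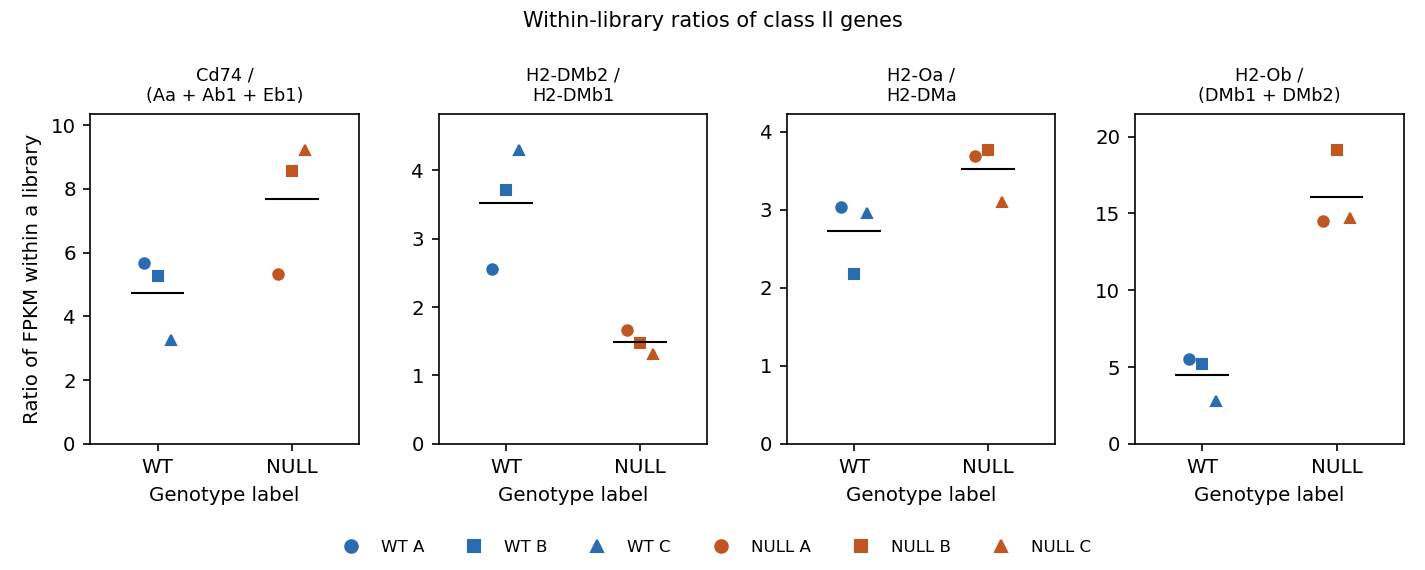
Ratio of FPKM values within each library (y axes, linear and starting at 0) for 4 pairs of class II genes in the WT (blue) and NULL (orange) libraries, with a line at the group mean. The ratio of H2-Ob to the H2-DM beta genes lies between 2.80 and 5.50 in WT and between 14.5 and 19.1 in NULL, and among the 4 only the ratio of Cd74 to the classical chains overlaps.

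Genes for the proteins that bind the promoter module were called in both directions. Of 8 genes for RFX, NF-Y, CREB1 and ATF1, all tested, 2 rose, 2 fell and 4 were not called. The shares over all tested genes were 23.3% called higher and 42.0% called lower. The median log2 change of the 8 genes was -0.16, against -0.13 over all tested genes. The RFX subunit genes Rfxank and Rfx5 rose, the former going from 2.15 ± 0.201 to 4.18 ± 0.238 FPKM and the latter from 6.32 ± 0.177 to 8.64 ± 0.0606 FPKM (SD, n = 3 per group). The NF-Y subunit gene Nfyb fell from 20.8 ± 0.282 to 14.5 ± 1.42 FPKM, and Atf1 from 14.9 ± 1.49 to 11.1 ± 1.07 FPKM. Neither decrease was called after rescaling to a common total (limma adjusted p = 0.525 and 0.74), and Atf1 was not called under the other rescalings either. The third RFX subunit gene, Rfxap, read 5.19 and 4.28 FPKM and was not called.

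Transcription factors that act on Ciita were called in 3 of 7 tested cases out of 9 listed, 2 higher and 1 lower, with a median log2 change of 0.13, against 65.3% called over all tested genes. The higher count was 3 with median-of-ratios rescaling, 5 with quantile normalization, 2 with a common total and 4 without the filter on low values. The interferon regulatory factor genes Irf1 and Irf8 rose, Irf1 from 17.3 ± 1.12 to 31.9 ± 1.41 FPKM and Irf8 from 44.7 ± 6.80 to 74.7 ± 3.66 FPKM (SD, n = 3 per group). Spi1, listed under its older name Sfpi1 and encoding PU.1, fell from 9.03 ± 2.17 to 5.39 ± 0.821 FPKM, a call lost after rescaling to a common total (limma adjusted p = 0.19). Pax5 and Irf4, at 53.9 and 34.1 FPKM in WT, were not called as deposited. Both were called higher after quantile normalization, Pax5 with a log2 change of 0.54 and Irf4 with one of 0.25 (limma adjusted p = 0.00494 and 0.0177), whereas the change of Irf4 was -0.07 as deposited. Prdm1, a repressor of Ciita in plasma cells, did not exceed 0.119 FPKM in any library.

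Genes that prepare peptides and degrade the invariant chain in endosomes were called in 7 of 8 tested cases out of 10 listed, 3 higher and 4 lower (median log2 change -0.15), against 23.3% higher and 42.0% lower over all tested genes. The lower count was 2 with median-of-ratios rescaling, 2 with quantile normalization, 1 with a common total and 2 without NULL B. Ctsb, a cysteine protease, rose from 18.5 ± 1.31 to 65.6 ± 3.65 FPKM, and Ctsd, an aspartic protease, from 29.7 ± 2.55 to 46.9 ± 0.849 FPKM (SD, n = 3 per group). Ifi30, the thiol reductase that opens disulfides of antigens, fell from 53.2 ± 15.0 to 16.5 ± 0.279 FPKM, a log2 change of -1.60 (SE 0.168, limma adjusted p = 0.000124). WT C read 70.5 FPKM for Ifi30, above the 45.6 and 43.6 FPKM of WT A and B, and without it the change was -1.38. Sppl2a, the protease that clears the last membrane fragment of the invariant chain, fell from 14.7 ± 0.796 to 10.4 ± 0.411 FPKM, and this call was lost after rescaling to a common total (limma adjusted p = 0.58). Ctss, the protease that trims the invariant chain to CLIP in B cells, read 40.8 ± 8.09 and 37.5 ± 2.79 FPKM and was not called.

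Genes that sit in or beside the class II region of chromosome 17 had 8 increases and no decrease among their calls as deposited. The 8 members on this chromosome span 224 kb, from H2-Oa at 34092340 to H2-Eb1 at 34316674. Of 24 listed neighbours 23 were in the table and 16 were tested, of which 8 rose and 0 fell by limma, with 1 more, the ribosomal protein gene Rps18, lower at an unadjusted p of 0.0479 (median log2 change of the 16 genes 0.18). Rps18 was called lower with robust moderation and without WT A (limma adjusted p = 0.0491 and 0.0353). Over all tested genes 23.3% were called higher and 42.0% lower. The peptide transporter genes Tap2 and Tap1, which serve class I loading, both rose. Tap2 went from 9.52 ± 1.23 to 28.3 ± 3.01 FPKM and Tap1 from 22.7 ± 2.35 to 45.7 ± 3.99 FPKM. The class I gene H2-K1 rose from 152 ± 13.1 to 410 ± 10.5 FPKM and the immunoproteasome gene Psmb9 from 33.3 ± 3.25 to 49.9 ± 5.88 FPKM (SD, n = 3 per group). On the log2(FPKM + 1) scale Tap2 and H2-K1 changed by 1.48 and 1.43, beside 1.42 for H2-Oa and 1.44 for H2-Ob. H2-Eb2, a class II beta gene beside H2-Eb1, read 0.599 to 1.14 FPKM in WT and 0.701 to 0.858 FPKM in NULL, and H2-Ea-ps was listed at 0 in every library.

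**Figure D4:**
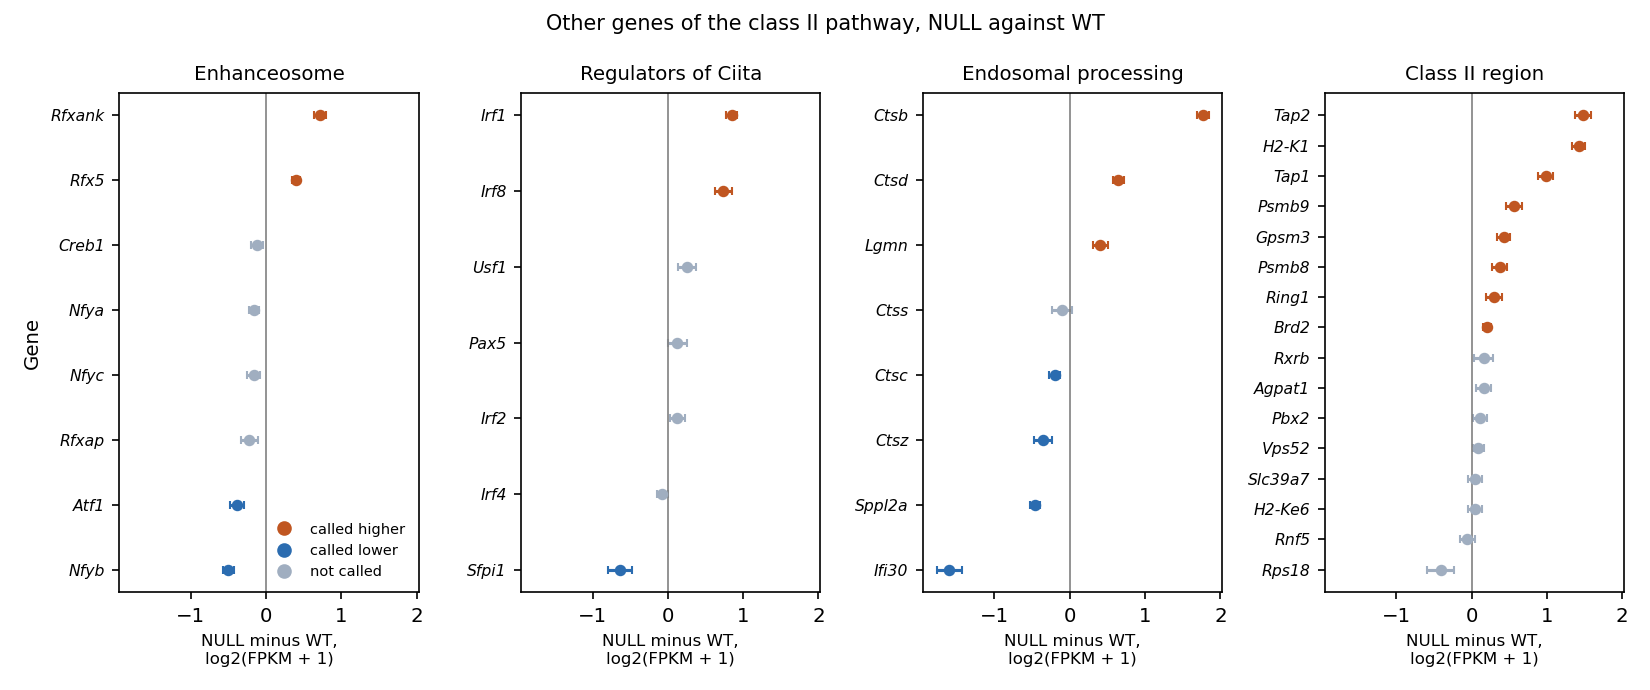
Change from WT to NULL on the log2(FPKM + 1) scale (x axes, bars of 1 standard error) for the tested genes of 4 lists around the class II pathway (y axes), coloured by the limma call on the values as deposited. The enhanceosome and endosomal lists hold genes called in both directions, while the class II region has 8 genes called higher and 0 lower.

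Genes for costimulation and class II turnover, March8 apart, had means below 1 FPKM. Of 7 listed genes only March8, which encodes a ubiquitin ligase, passed the filter, at 2.27 ± 0.127 FPKM in WT and 2.03 ± 0.136 FPKM in NULL (SD, n = 3 per group), and it was not called. Its log2 change of -0.11 changed sign with median-of-ratios rescaling and with a common total, and with quantile normalization it was -0.23 and called lower (limma adjusted p = 0.0453). The costimulatory genes Cd86 and Cd40 and the activation marker Cd83 did not exceed 0.0792 FPKM in any library, and Cd80 did not exceed 0.172 FPKM.

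The spread among the WT libraries came largely from WT C for the genes with lower NULL values. Relative to the mean of WT A and B, WT C was 3.34-fold higher for H2-Ab1, 2.35-fold for H2-DMb2 and 2.0-fold for Cd74, against 1.54-fold for H2-Oa, 1.30-fold for H2-DMa and 1.15-fold for H2-Ob. The median over all tested genes was 1.0, and the first 3 values lay at the 99.7, 99.1 and 99.2 percentiles of the tested genes. H2-Oa, H2-DMa and H2-Ob lay at the 96.3, 82.3 and 80.7 percentiles. H2-DMb1, at 1.7-fold, lay at the 92.5 percentile. High values in WT C were thus not limited to the genes with lower NULL values. Summed over all genes, FPKM was also highest in WT C, at 581658 against 377374 in WT A and 419286 in WT B. Markers of mature B cells, 4 of 5 in the table, summed to 3.43 FPKM in WT C. Their sum was 2.12 and 2.31 FPKM in WT A and B, and 0.71 to 1.15 FPKM in NULL. Ms4a1 led at 2.44 FPKM in WT C, and its group mean went from 1.77 (WT) to 0.101 FPKM (NULL). The other mature B markers did not share a direction. Cr2 was lower in every NULL library (mean 0.459 against 0.601 FPKM) and Cd40 higher (0.0607 against 0.0274 FPKM). Fcer2a overlapped between the groups, with the higher mean in NULL (0.265 against 0.22 FPKM). Conventional dendritic cell markers, 8 of 8 in the table, summed to 9.41 FPKM in WT C, 6.08 and 5.59 FPKM in WT A and B and 6.02 to 6.87 FPKM in NULL. Ccr7 alone gave 9.01 FPKM of the sum in WT C, while Clec9a and Cd209a were at 0 in every library and Itgax at 0 in every WT library and at 0.160, 0.143 and 0.147 FPKM in NULL A, B and C. Plasmacytoid dendritic cell markers, 5 of 5, summed to between 16.0 and 20.8 FPKM in WT and between 16.4 and 17.3 FPKM in NULL, nearly all from Bst2 and Tcf4, and Siglech did not exceed 0.0932 FPKM. Bst2 fell from 10.6 to 5.14 FPKM and Tcf4 rose from 7.57 to 11.5 FPKM (group means, limma adjusted p = 0.00251 and 0.000454). Monocyte and macrophage markers, 8 of 8, summed to between 1.35 and 2.30 FPKM in WT and between 3.57 and 4.82 FPKM in NULL, with C1qa and Cd14 at 0 in every library. Lyz2 rose from a mean of 0.413 to 2.85 FPKM (limma adjusted p = 9.19e-05), and the other 7 genes summed to between 0.918 and 2.05 FPKM in WT and between 0.922 and 1.35 FPKM in NULL, with overlap. Mrc1, too low to be tested, averaged 0.434 FPKM over the WT libraries, and every NULL library was lower (mean 0.163 FPKM). The part of such cells in the class II values was not tested.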

How the data were processed

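The values are FPKM deposited by the authors for 6 libraries, which per the labels' protocols were stranded, polyadenylated and sequenced as paired ends. Per the submitters' processing notes, Bowtie and Cufflinks were used with the builds mm10 and GRCm38, and neither versions nor roles are stated. The annotation, filters and any use of strand in counting were not given in the sources used here. The series table of 23848 rows differed from the library tables in 0 values. For symbols on more than 1 row (256), only the row of highest mean was used. Groups and letters came from the sample titles. The 9916 genes whose mean reached 1 FPKM were fitted in limma 3.58.1 (R 4.3.3) as log2(FPKM + 1), with a variance trend, two-sided, with Benjamini-Hochberg adjustment over all tested genes and a threshold of 0.05. Fold changes on this scale understate changes of low genes. Within-library ratios used exact permutation tests (scipy 1.17.1). The limma step was tested on simulated data. Depth was read from the commonest step between low FPKM values and transcript length, an approximation that supports no interval. Positions and transcripts are from GENCODE vM21 (GRCm38), aligned with blastn 2.17.0, and promoters from RefSeq.

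The members and lists were chosen with earlier results of these data known, and 2 listed genes that are no members are not reported here and were left out of the lists' counts and sums. Named are all members, Gab2, and in each further list up to 4 called genes without overlap and with the largest changes, else up to 2 with the smallest p. Others are named for their role or as measured values after seeing the data. Alternatives were other pseudocounts and filters, 3 rescalings, no trend, robust moderation, a block on the replicate letter, summed rows and leaving out each library.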

Additional observations from a re-analysis of the deposited data

How the results depend on the processing

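The 6 tested class II genes kept their direction under all alternatives in which they were tested. The 3 higher calls (H2-DMa, H2-Oa, H2-Ob) held in all of these, H2-DMa falling below the filter at a mean of 5 FPKM. The count of members called lower, 2, was 0 without the filter (limma, 2 at an unadjusted p below 0.05), 1 at a mean of at least 5 FPKM, 1 after rescaling to a common total, 1 with robust moderation, and 0 to 3 when single libraries were left out. It was 0 without NULL B (1 at an unadjusted p below 0.05) and 1 without NULL C. Without the filter H2-Ab1 and Cd74 had adjusted p-values of 0.0779 and 0.0506. H2-Ab1 lost its call with robust moderation (adjusted p = 0.0856). Members at low FPKM rest on few fragments.

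Of the 40 tested genes in the 5 further lists, 15 were called higher and 7 lower, against 23.3% and 42.0% over all tested genes. The lower count was 4 after median-of-ratios rescaling and 1 after rescaling to a common total. March8 turned to 0.00185 and 0.0844 in those settings. Over all 9916 tested genes, 2311 were called higher and 4168 lower. The higher count was 1364 of 7067 tested genes at a mean of at least 5 FPKM. After rescaling to a common total the lower count was 999 of 9953 tested genes. Lower genes made up 64.3% of calls as deposited, 50.7% after median-of-ratios rescaling, 53.7% after quantile normalization and 32.7% with a common total. The log2 ratio of H2-DMb2 to H2-DMb1 changed by -1.21, and by -0.74 with a pseudocount of 1. The causes were not tested.

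With the replicate letter as a block, 3 members were called higher and 2 lower, as without it, and 2050 genes higher and 3794 lower. Deviations of libraries with the same letter correlated at 0.0735, 0.355 and 0.133 for A, B and C. Each library correlated best with its own letter, a hint from the data only, as the labels do not say that letters pair samples.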

Other observations

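Some genes of the lists had a mean below 1 FPKM over the 6 libraries and were not tested. Their values are given here because their groups, or 1 library, stood apart. They were chosen after their values were seen and are not all such genes. Prdm1, March1, Cd40, Ager, Col11a2, Itgax, Siglech and Klrb1c, also untested, were higher in every NULL library than in any WT library. Cr2 and Mrc1 were lower. Bcl6, which encodes a transcriptional repressor, read 0.181, 0.123 and 0.112 FPKM in the WT libraries A, B and C and 0.605, 0.748 and 0.722 FPKM in NULL A, B and C. Ctsl, a protease that degrades the invariant chain in thymic epithelium, read 0.414, 0.245 and 0.365 FPKM in WT and 1.13, 0.945 and 1.33 FPKM in NULL. Icosl, the ligand of ICOS, read 0.282, 0.448 and 0.475 FPKM in WT and 0.0614, 0.0658 and 0.182 FPKM in NULL. Ms4a1, which encodes CD20, read 1.27, 1.61 and 2.44 FPKM in WT and 0.0610, 0.135 and 0.105 FPKM in NULL. Bcl6 and Ctsl were higher in every NULL library than in any WT library, and Icosl and Ms4a1 lower. Ctsh, an endosomal protease, read 0.238, 0 and 1.15 FPKM in WT but 0.0396, 0.0587 and 0.0344 FPKM in NULL, so that its groups overlapped and WT C stood apart.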
